A study of Mus musculus with 3 samples.

Results

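RNA pulled down with an antibody against Mettl3 was compared directly with RNA pulled down with an antibody against Zfp217, both from nuclei of CCE mouse embryonic stem cells. The comparison covers the transcripts that the authors listed for both antibodies, which were 4026 transcripts of 3484 gene symbols. Either table held 13595 transcripts in all, so the shared set made up 42.4% of those listed for Mettl3 and 49.6% of those listed for Zfp217. The question it answers is which RNAs were more abundant with one antibody than with the other. The 2 RNA immunoprecipitations (RIP) and the input were 1 library each, from untreated cells of 1 line grown without feeders in serum and leukemia inhibitory factor. The labels name no engineered allele, a pull-down with a control antibody was not analysed here, and the amount of RNA bound cannot be told apart from the yield of each antibody. With 1 library a side there is no replicate error, no p-value is given, and every difference is between these libraries.

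Mettl3 is the catalytic subunit of the nuclear enzyme that adds m6A, a methyl group on adenosines of RNA, which is written preferentially in the sequence GGAC and its relatives and lies mostly near stop codons and in 3′ untranslated regions (UTR). The mark is known to shorten the life of many mRNAs, including those of pluripotency factors in embryonic stem cells. Zfp217 is a zinc finger protein found with the CoREST and CtBP corepressors on chromatin, and the title of the series connects it with m6A. A RIP reports RNA that comes down with a protein, whether bound directly or through a partner.

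Values are in FPKM, the fragments of a transcript scaled to its length and to the mapped fragments of the library. The 2 RIPs stand in separately normalized tables. The values of their shared input differed by a factor of 0.989 at the median of 2813 transcripts. The ratio is log2((Mettl3 RIP + 1)/(Zfp217 RIP + 1)), and a transcript is counted as higher in a RIP from a 2-fold difference on that scale. The scale understates the change of low transcripts, so plain FPKM ratios are given as folds for named transcripts. Each fold has a 95% exact binomial interval that covers counting error alone. It rests on fragment numbers estimated from length and library size, 9750000 for Mettl3 and 7050000 for Zfp217. Among the 3446 shared transcripts of at least 300 bases the median was 57.8 and 40.7 estimated fragments, and 12.4% and 17.4% had under 10.

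The ends of the coding sequences of some of the mRNAs furthest apart are shown as examples and do not stand for either side as a whole. Apart from Rnmt, the 3 protein-coding transcripts with the highest and the 3 with the lowest ratios are shown, among those with at least 2 FPKM in both RIPs, at least 300 coding bases and an annotated 3′ UTR. Rnmt also met these limits with a ratio below that of Tnk2, and its sequence is not shown. Sequences are the last 90 coding bases, stop codon included, of GENCODE M21 transcripts, 5′ to 3′, with GGAC in capitals.
Tet1: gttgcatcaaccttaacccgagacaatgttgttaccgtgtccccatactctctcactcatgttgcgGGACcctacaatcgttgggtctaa
Esrrb: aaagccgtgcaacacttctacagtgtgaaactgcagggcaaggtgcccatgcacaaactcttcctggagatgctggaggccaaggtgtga
Rab6: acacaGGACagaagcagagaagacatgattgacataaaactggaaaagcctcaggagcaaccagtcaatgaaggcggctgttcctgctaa
Txnip: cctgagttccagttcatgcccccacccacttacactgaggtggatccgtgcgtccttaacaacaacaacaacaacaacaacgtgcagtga
Tnk2: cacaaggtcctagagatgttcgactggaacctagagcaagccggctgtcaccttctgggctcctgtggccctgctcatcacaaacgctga
D030056L22Rik: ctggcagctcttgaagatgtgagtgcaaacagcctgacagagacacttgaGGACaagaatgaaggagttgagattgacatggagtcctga

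Tet1, Esrrb and Rab6 were higher with Mettl3, and Txnip, Tnk2 and D030056L22Rik with Zfp217. GGAC occurs in 2 of the first 3 stretches and in 1 of the last 3. Of 2271 shared protein-coding transcripts with a 3′ UTR, 33.7% hold GGAC on the sense strand in this window, with 27.7% of the 112 that were higher with Mettl3 and 31.5% of the 54 higher with Zfp217. A match is a stretch of letters and not a measured m6A site. Across the whole transcript, GC content was 43.6% for Tet1, 56.3% for Esrrb and 38.3% for Rab6, against 48.5% for Txnip, 60.4% for Tnk2 and 48.4% for D030056L22Rik. In GRCm38 these transcripts lie at chr10:62804570-62880014 (minus strand, Tet1), chr12:86421644-86521625 (plus, Esrrb), chr7:100607410-100641268 (plus, Rab6), chr3:96557960-96561857 (plus, Txnip), chr16:32644826-32683492 (plus, Tnk2) and chr19:18713236-18718428 (plus, D030056L22Rik).

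Most shared transcripts were at similar levels with both antibodies. The median log2 ratio was 0.06 (quartiles -0.25 and 0.39), and the median level was 2.87 FPKM with Mettl3 and 2.72 FPKM with Zfp217. Of the 4026, 3671 (91.2%) were within 2-fold and 3015 (74.9%) within 1.5-fold. The 2-fold rule called 217 transcripts (5.39%) higher with Mettl3 and 138 (3.43%) higher with Zfp217. Among those of at least 300 bases, the counting interval of the fold excluded 1 for 175 of 177 and 88 of 95. These were picked by the same ratio, so that share is no independent check of the calls. Over all 3446 shared transcripts of that length, the interval lay above 1 for 810 and below 1 for 389. Just inside the 2-fold limit were Ccna2 at a log2 ratio of 1.001 and Npepps at -1.001, and just outside it Cdr2 at 0.9999 and Ccnc at -0.991.

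**Figure D1:**
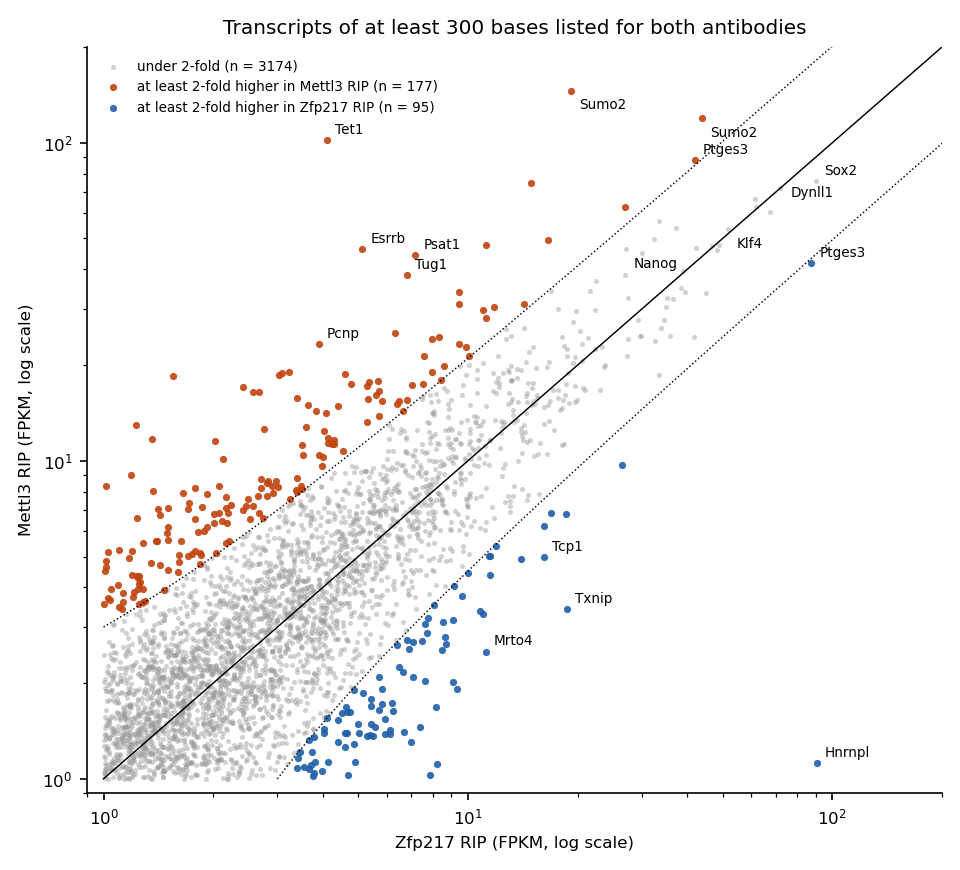
FPKM in the Mettl3 RIP (y axis) against the Zfp217 RIP (x axis), both on log scales, for the shared transcripts of at least 300 bases. Each point is 1 transcript, the solid line marks equal values and the dotted lines the 2-fold limit on the log2(FPKM + 1) scale. The 177 orange points lie above it and the 95 blue points below it, with Tet1 far above and Hnrnpl far below the main cloud.

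The share of transcripts called differed with their level in the input. The 1213 transcripts listed at 0 FPKM in the input held 60.9% of the transcripts higher with Zfp217 (84 of 138) and 30.9% of those higher with Mettl3 (67 of 217). Where the input was at least 1 FPKM, 76 of 1400 transcripts (5.43%) were higher with Mettl3 and 16 (1.14%) with Zfp217. An input of 0 was also listed for a transcript of Gapdh, a gene active in every cell. A retained-intron Gapdh transcript had an input of 0.77 FPKM. An input of 0 therefore need not mean that the gene was silent, and why it was listed was not tested.

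Among transcripts of at least 300 bases, the widest gap towards Mettl3 was that of Tet1, which makes the dioxygenase that oxidizes 5-methylcytosine in DNA. Its 13986-base transcript was at 101.7 FPKM in the Mettl3 RIP and 4.09 FPKM in the Zfp217 RIP, 24.9-fold higher (interval 22.5 to 27.5). Esrrb, an orphan nuclear receptor of naive stem cells, was at 46.3 against 5.13 FPKM, 9.03-fold higher (7.63 to 10.8). Both transcripts were at or near 0 in the input, and other Tet1 transcripts stood in 1 table alone. These were ENSMUST00000174189 at 73.8 FPKM and ENSMUST00000173087 at 5.75 FPKM for Mettl3, and ENSMUST00000174121 at 12.1 FPKM for Zfp217, so the fold is that of a single transcript and not of the gene.

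Sumo2, a small protein attached to other proteins, was the most abundant mRNA of at least 300 bases among those higher with Mettl3. Its transcript ENSMUST00000118155 was at 145.8 against 19.2 FPKM (7.60-fold, interval 6.19 to 9.42), and ENSMUST00000121185 at 119.2 against 43.8 FPKM (2.72-fold, 2.36 to 3.16). Another, annotated for nonsense-mediated decay, was at 25.3 against 6.31 FPKM. All 3 shared Sumo2 transcripts were therefore higher with Mettl3, and their summed level was 290.3 against 69.3 FPKM. Sumo2 reads may be shared with processed pseudogenes, which leaves its levels uncertain.

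Other transcripts leading towards Mettl3 came from unrelated pathways. The small GTPase Rab6, which acts in Golgi transport, was at 17.1 against 2.41 FPKM (7.08-fold, interval 5.15 to 9.97). Psat1, which encodes a serine-making aminotransferase, had a retained-intron form at 44.4 against 7.17 FPKM (6.20-fold, 4.85 to 8.02). The long noncoding RNA Tug1 was at 38.4 against 6.80 FPKM (5.65-fold, 4.90 to 6.53) for ENSMUST00000144852, while its longer transcript ENSMUST00000132077 was at 7.59 against 5.36 FPKM. Slc38a1, a glutamine transporter, was at 18.6 against 3.04 FPKM (6.13-fold), and Mobkl1b, an activator of kinases of the Hippo pathway, at 18.9 against 3.09 FPKM (6.11-fold). The last of the 10 were a decay-annotated transcript of Pcnp, a nuclear protein, at 23.3 against 3.89 FPKM, and the gene 2810474O19Rik at 16.4 against 2.57 FPKM. The lowest interval bound among these 7 transcripts was 4.45. Larp4, an RNA-binding protein, was as far apart (21.7 against 3.69 FPKM), but its transcript identifier had no length in M21.

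Among transcripts of at least 300 bases with at least 2 FPKM in both RIPs, the gaps towards Zfp217 were narrower than that of Tet1. Txnip, an inhibitor of thioredoxin and of glucose uptake, was at 18.7 FPKM with Zfp217 and 3.41 FPKM with Mettl3, 5.48-fold higher with Zfp217 (interval 4.33 to 7.01). Rnmt, which methylates the mRNA cap, was at 9.09 against 2.02 FPKM (4.50-fold, 3.03 to 6.83), yet other Rnmt transcripts stood in the Mettl3 table alone at 5.05 and 3.31 FPKM. Mrto4, a ribosome assembly factor, was at 11.2 against 2.51 FPKM (4.46-fold, 2.55 to 8.19). The kinase Tnk2 was at 7.64 against 2.03 FPKM (3.76-fold, 2.90 to 4.92). Other Tnk2 transcripts were listed for Mettl3 alone at 6.59 and 1.38 FPKM and for Zfp217 alone at 2.55 and 2.40 FPKM. A retained-intron transcript of Tcp1, a subunit of the cytosolic chaperonin, was at 16.1 against 4.97 FPKM (3.24-fold, 2.10 to 5.13), whereas the protein-coding Tcp1 transcript was at 7.50 against 11.3 FPKM.

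D030056L22Rik was 3.32-fold higher with Zfp217 (interval 2.35 to 4.75), Fbxl5, an iron-sensing ubiquitin ligase subunit, 3.29-fold (2.46 to 4.43) and a retained-intron transcript of the replication factor Mcm10 3.36-fold (2.16 to 5.33). The folds of Ppih, a splicing-associated isomerase (3.39-fold, 1.56 to 7.99), and of a 346-base Gas5 transcript (3.203-fold, 1.23 to 9.34) rested on few fragments. Other Ppih transcripts were listed for Mettl3 alone at 15.0 FPKM and for Zfp217 alone at 2.74 FPKM. Of the 10 transcripts leading towards Zfp217, Tcp1 was the 1 with an input of at least 1 FPKM, at 2.85 FPKM. The transcript with the lowest log2 ratio of the whole set, -5.43, was a 672-base retained-intron form of Hnrnpl, a splicing regulator, and it is named here after its values were seen. It was at 90.6 FPKM with Zfp217 and 1.12 FPKM with Mettl3, below the 2 FPKM asked of named transcripts and listed at 0 in the input. Another retained-intron form of Hnrnpl was in the Mettl3 table alone at 19.7 FPKM.

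The shared transcripts of Sox2, Klf4, Nanog, Myc and Pou5f1, factors that set or reprogram the pluripotent state, were within 2-fold. Sox2, at 75.8 FPKM with Mettl3 and 90.05 with Zfp217, was 1.19-fold higher with Zfp217 (interval 1.10 to 1.28). Klf4 was at 53.6 and 51.8 FPKM, a ratio of 1.03 (0.95 to 1.12). Nanog was at 38.5 and 27.0 FPKM, 1.42-fold higher with Mettl3 (1.25 to 1.62). Its transcript ENSMUST00000012540 was listed for Zfp217 alone, at 29.0 FPKM. Myc was at 6.43 and 7.36 FPKM (0.87, 0.68 to 1.13), and the shared Pou5f1 transcript at 2.39 and 2.16 FPKM with an interval of 0.43 to 3.03. Other Pou5f1 transcripts were listed for Mettl3 alone at 8.54 FPKM and for Zfp217 alone at 5.22 FPKM. The intervals of Klf4, Myc and Pou5f1 include 1, so no difference was detectable for them at this depth.

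The shared transcripts of Wtap and of Zfp217 itself had intervals that include 1. Other Wtap transcripts were listed for Zfp217 alone, at 12.9, 10.7 and 1.63 FPKM, so the comparison does not cover the whole gene. The shared protein-coding transcript of Wtap, which anchors the enzyme in nuclear speckles, was at 6.97 with Mettl3 and 8.66 FPKM with Zfp217 (0.80, interval 0.62 to 1.04). That of Zfp217 was at 3.63 and 4.14 FPKM (0.88, 0.71 to 1.09). Mettl3 and Mettl14 were not among the shared transcripts. Dynll1, a dynein light chain and among the most abundant shared RNAs, was at 71.9 and 72.1 FPKM (0.998, 0.83 to 1.20).

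In 437 symbols at least 2 transcripts were shared. Of these, 90 had a transcript at least 2-fold apart, 3 had every shared transcript higher with Mettl3 and 0 had every one higher with Zfp217. Transcripts of 1 gene went opposite ways in 5 symbols, of which U1 stands for many gene copies and the other 4 are single genes. Ptges3, a cochaperone of Hsp90, had 88.0 against 41.9 FPKM for ENSMUST00000084771 (2.10-fold higher with Mettl3, interval 1.88 to 2.35). Its transcript ENSMUST00000052798 had 41.8 against 87.7 FPKM (2.10-fold higher with Zfp217, 1.91 to 2.303), and their sums were 129.8 and 129.6 FPKM.

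The sums of the other such genes are given for reference. A ratio of sums always lies between the lowest and the highest ratio of a gene's transcripts. Mtmr12, a myotubularin-related adaptor, had its protein-coding transcript at 9.05 against 1.19 FPKM and its decay-annotated transcript at 1.46 against 5.56 FPKM, with sums of 13.1 and 7.92 FPKM. Wnk1, a kinase of ion transport, had a retained-intron transcript at 14.3 against 3.83 FPKM and a decay-annotated one at 2.79 against 8.64 FPKM, with sums of 40.0 and 27.9 FPKM. Ctnnd1, or p120 catenin, had ENSMUST00000066177 at 8.53 against 2.81 FPKM and ENSMUST00000036811 at 1.61 against 4.50 FPKM, with sums of 19.5 and 11.3 FPKM. These transcripts overlap, so how the authors' software divided their reads was part of each value, and its role was not tested.

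By source class, as the authors' tables give it, the long RNAs differed little. Counts of each class are to be read beside the shares of all shared transcripts, 5.39% higher with Mettl3 and 3.43% higher with Zfp217. Protein-coding transcripts (2813) had a median log2 ratio of 0.08, with 145 (5.15%) higher in the Mettl3 RIP and 82 (2.92%) in the Zfp217 RIP. Retained-intron transcripts (430) had a median of 0.04, with 16 and 13 called. Processed transcripts, which are noncoding products of coding genes (364), had a median of 0.04, with 25 and 12. Transcripts annotated for nonsense-mediated decay (105) had a median of 0.01, with 7 each way. Transcribed processed pseudogenes (82) had a median of 0.02 and 1 transcript each way, the Mettl3-side one being Rpl19-ps1 at 10.5 against 3.52 FPKM.

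Intergenic long noncoding RNAs (61) had a median of 0.16. Of these, 5 (8.20%) were higher in the Mettl3 RIP and 0 in the Zfp217 RIP, against 5.39% and 3.43% of all shared transcripts. The 5 were A530017D24Rik, Gm11815, Gm16707, Gm17591 and Gm17500, named after their values were seen. None of these met the limits for named transcripts, and no counting interval is given for them. The highest that met the limits was Gm12798, at 3.48 against 2.42 FPKM. Of the 61, 14 had a length of at least 300 bases in M21. Antisense transcripts (35) had a median of 0.04 and 1 call, towards Mettl3. Whether the libraries kept strand is not given in the sources used here, so reads of an antisense RNA and of its partner cannot be told apart. The misc_RNA class (28, among them 6 copies of 7SK, an RNA that restrains transcription elongation) had a median of 0.50 with 8 and 0 called. Its median levels were 3.16 FPKM with Mettl3 and 2.03 FPKM with Zfp217, and its median length 273.5 bases. The 3 of at least 300 bases had a median of -0.58 when set against transcripts of similar GC content and length. The reads behind the 8 calls are not given. The snoRNA class (34) had the lowest median of the classes with at least 5 transcripts, -0.46, with 1 higher in the Mettl3 RIP and 13 in the Zfp217 RIP.

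**Figure D2:**
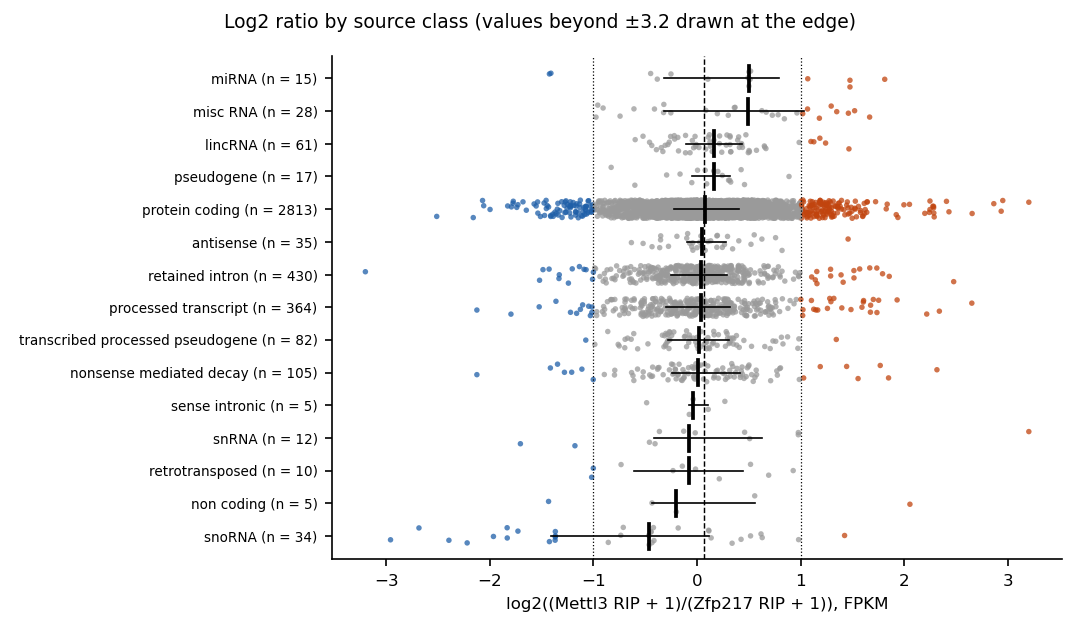
Log2 ratio of the Mettl3 over the Zfp217 RIP (x axis) for every shared transcript of the 15 source classes with at least 5. Values past the axis are drawn at its edge. Thick bars mark class medians, thin lines the quartiles, the dashed line the median of all shared transcripts (0.06) and dotted lines the 2-fold limits, and the snoRNA class lies furthest to the left.

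The snoRNAs, which guide methylation and pseudouridylation of other RNAs, are short, so their FPKM values move in visible steps of 1 read. The steps gave reads for 33 of the 34. A box C/D snoRNA carries a C box (TGATGA here) and a D box (CTGA), and a box H/ACA snoRNA ends in ACA followed by 3 bases. The capitals mark these boxes in 2 RNAs of each kind.
SNORD12: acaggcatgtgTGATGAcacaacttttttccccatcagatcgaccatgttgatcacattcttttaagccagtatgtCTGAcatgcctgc
snoU2_19: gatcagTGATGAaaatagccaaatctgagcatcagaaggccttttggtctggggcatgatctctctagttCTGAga
SNORA51: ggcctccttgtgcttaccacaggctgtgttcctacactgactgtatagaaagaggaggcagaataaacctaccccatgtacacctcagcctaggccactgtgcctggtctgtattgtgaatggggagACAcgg
SNORA5: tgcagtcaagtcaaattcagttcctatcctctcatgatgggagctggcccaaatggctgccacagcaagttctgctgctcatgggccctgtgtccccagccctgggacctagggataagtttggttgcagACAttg

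SNORD12 and snoU2_19 were higher with Zfp217, SNORA5 with Mettl3, and SNORA51 was near equal. Among the 33, TGATGA with CTGA was found in 9 of the 11 box C/D RNAs by name and in 0 of the 14 box H/ACA RNAs by name, and ACA at that place in 10 of those 14. In GRCm38 they lie at chr2:167064998-167065086 (plus strand, SNORD12), chr9:15326464-15326539 (minus, snoU2_19), chr2:130276237-130276369 (plus, SNORA51) and chr6:70855444-70855579 (plus, SNORA5).

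The reads behind these snoRNAs were few. snoU2_19 was at 485 FPKM with Mettl3 and 3778 FPKM with Zfp217, which is 1 and 6 reads, so its 7.78-fold gap has an interval of 0.94 to 358. SNORA55 had 1 and 5 reads, SCARNA11, a Cajal body RNA, 2 and 8 (5.52-fold, 1.10 to 53.3), and SNORD12 3 and 8 (3.56-fold, 0.86 to 20.9). SNORA5 had 15 with Mettl3 and 4 with Zfp217 (2.72-fold, 0.87 to 11.3). The members with at least 10 reads in both libraries were SNORA51 (41 and 27 reads, fold 1.10, interval 0.66 to 1.86), SNORA84 (33 and 32, fold 0.75, 0.44 to 1.25) and SNORA19 (11 and 13, fold 0.61, 0.25 to 1.47). Their intervals all include 1.

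Summed over the 33, the snoRNA class had 196 reads with Mettl3 and 185 with Zfp217. Per sequenced fragment that is 1.30-fold more with Zfp217 (interval 1.06 to 1.60), a smaller gap than the class median. The sum holds only snoRNAs listed for both antibodies, and 13 of the 33 had 1 read in at least 1 library. The Mettl3 library held 1.38 times the fragments, so equal reads give a ratio below 0, as for SCARNA20 (7 and 7 reads, -0.47). How far this selection moved the sum and the class median was not tested. The 12 that passed the 2-fold rule towards Zfp217 had medians of 1 and 3.5 reads. Box C/D RNAs by name had 37 and 43 reads (1.60-fold more per fragment with Zfp217, interval 1.01 to 2.56), and box H/ACA RNAs 129 and 105 (1.13-fold, 0.86 to 1.47). The intervals treat reads as independent and leave out library preparation and the selection of RNAs listed for both antibodies.

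**Figure D3:**
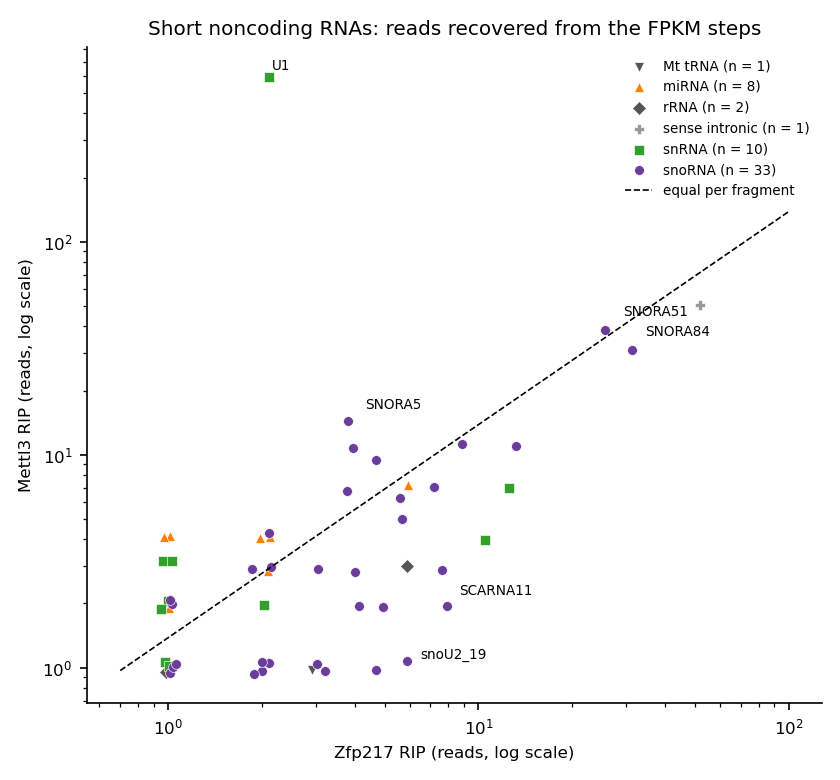
Reads in the Mettl3 RIP (y axis) against reads in the Zfp217 RIP (x axis), both on log scales, for the 55 short noncoding RNAs whose FPKM steps gave reads, drawn with slight jitter. The dashed line marks equal reads per sequenced fragment, most points lie under 10 reads in both, and 1 U1 copy stands alone at 585 against 2.

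The largest ratio of any shared transcript, 7.58 on the log2 scale, was that of a U1 copy (ENSMUST00000083374), the small nuclear RNA that recognizes the 5′ splice site. It was at 1867 FPKM with Mettl3 and 8.77 FPKM with Zfp217, which is 585 and 2 reads. The other 6 shared U1 copies with recovered reads summed to 15 and 16 reads, so among shared copies the difference was in that single one. A further U1 copy was listed for Mettl3 alone at 1918 FPKM, while the highest U1 copy in the Zfp217 table was at 61.4 FPKM. U1 copies are nearly identical, and reads that fit several copies can be assigned to any of them. The miRNA class (15) had a median of 0.50 with 4 and 2 called, and the 8 with recovered reads summed to 30 and 16 (1.36-fold per fragment, interval 0.72 to 2.66). Its highest member, AL929371.2, was at 276.0 against 78.0 FPKM.

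For longer transcripts the ratio followed base composition. Among 2454 protein-coding transcripts of at least 300 bases, the quintile with the lowest GC content (34.02% to 43.7%) had a median log2 ratio of 0.32, with 65 of 491 (13.2%) higher in the Mettl3 RIP and 10 (2.04%) in the Zfp217 RIP. The quintile with the highest GC content (55.2% to 73.5%) had a median of -0.04, with 6 (1.22%) and 15 (3.05%). Spearman's correlation between GC content and the ratio was -0.30 across transcripts of the same pair of libraries. The median GC content was 43.5% in the 122 transcripts higher with Mettl3, 51.3% in the 62 higher with Zfp217 and 49.6% in the rest.

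Length went the other way. The shortest quintile (311 to 1514 bases) had a median of -0.11, with 15 and 26 called, and the longest (from 4718 bases) a median of 0.28, with 41 and 5. The quintile with the longest 3′ UTRs (from 2399 bases) had a median of 0.34, with 53 of 483 (10.97%) higher in the Mettl3 RIP and 1 (0.21%) in the Zfp217 RIP. Spearman's correlation with the ratio was 0.33 for the length of the 3′ UTR, 0.11 for that of the coding sequence and 0.08 for that of the 5′ UTR. For the number of exons it was -0.01.

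**Figure D4:**
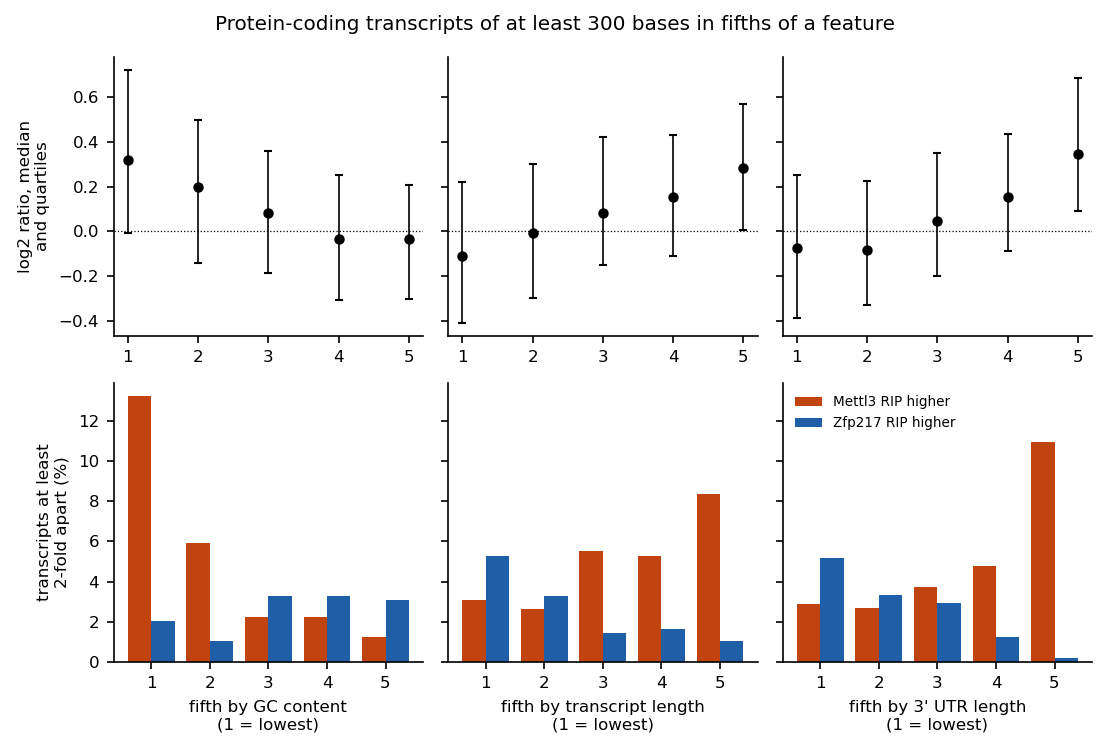
Protein-coding transcripts of at least 300 bases in quintiles by GC content, transcript length and 3′ UTR length (x axes, 1 is the lowest). Upper panels give the median log2 ratio with quartiles and lower panels the percent called higher with Mettl3 (orange) or Zfp217 RIP (blue). The Mettl3 share falls from 13.2% to 1.22% with GC content and reaches 10.97% in the quintile with the longest 3′ UTRs.

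Each pattern was also seen within quintiles of the other feature. Within the lowest GC quintile, the median was 0.10 in the shortest and 0.42 in the longest quintile, and within the longest quintile it went from 0.42 at the lowest GC content to 0.04 at the highest. The GC pattern was as wide where the input was at least 1 FPKM, with 14.3% of 210 transcripts higher in the Mettl3 RIP at the lowest GC content and 0.95% of 210 at the highest. It was as wide among transcripts with at least 10 estimated fragments in both libraries, at 13.4% and 0.66%. Retained-intron transcripts showed little of it, with medians of 0.04 and 0.00 in their lowest and highest GC quintiles. Base composition and length also affect library preparation, and their part in the ratios was not tested.

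The m6A core motif followed GC content. The density of GGAC on the sense strand was 2.88 per kilobase at the median of transcripts higher with Mettl3, 4.03 in those higher with Zfp217 and 3.96 in the rest. The quintile with the fewest GGAC had a median log2 ratio of 0.23 and the quintile with the most -0.03. Within GC quintiles, Spearman's correlation between GGAC density and the ratio lay between -0.09 and 0.04. These values describe letters in annotated transcripts and say nothing on where m6A was.

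Of the 32 gene lists, 29 had at least 5 shared transcripts. Among the lists that follow, counts are of transcripts higher with Mettl3 and with Zfp217, to be read beside 5.39% and 3.43% of all shared transcripts, and medians beside 0.06. The lists were chosen with earlier results of these data known, and no list was tested. A second median is given where it changes the picture, taken after each transcript of at least 300 bases was set against the median of its own GC and length quintile.

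Among regulators of stem cell identity, the core and naive pluripotency factors (24 transcripts) had a median of 0.20, with 4 and 1 called. The 4 were Tet1, Esrrb, a 393-base Sall4 transcript (4.77 against 1.35 FPKM) and Zscan10 (3.55 against 1.001 FPKM), and the 1 was Dppa4 (4.90 against 12.3 FPKM). The longer Sall4 transcript, of a zinc finger factor of the Nanog network, was at 18.7 against 9.87 FPKM. Fgf4, a growth factor that primes cells for differentiation, was at 27.7 against 34.5 FPKM. The immediate early and FGF-ERK genes (18) had a median of 0.31, and 0.29 within GC and length quintiles, with 2 and 0 called. These were the ERK-responsive factor Etv5 (62.95 against 27.0 FPKM, 2.33-fold, interval 2.14 to 2.54) and the receptor adaptor Grb2 (11.4 against 4.13 FPKM). The feedback inhibitors Spry4 (53.9 against 37.3 FPKM) and Spred2 (24.1 against 12.7 FPKM) stayed under 2-fold, and Spry2 was at 32.2 against 36.6 FPKM.

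Wnt and TGF-beta genes (22) had a median of 0.22, with 1 and 0 called. The BMP receptor Bmpr1a was at 24.2 against 7.98 FPKM (3.03-fold, interval 2.68 to 3.43), while its ligand Bmp4 was at 5.39 against 9.68 FPKM. Checked against markers of the labelled cells, 7 of 12 embryonic stem cell markers had a shared transcript, with summed levels of 266.1 FPKM for Mettl3 and 217.3 FPKM for Zfp217. Markers of fibroblast feeders (8), endoderm (6), mesoderm (5), neuroectoderm (5) and trophoblast (4) were in neither table. Only transcripts that passed the authors' selection were listed, so a marker in neither table is not shown to be unexpressed.

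The m6A list (12) had a median of -0.02, with 2 and 0 called. This median was unstable: it kept its sign in 6 of 12 other settings and ranged from -0.08 to 0.73. The ubiquitin ligase Cbll1, also called Hakai and part of the m6A enzyme, was at 11.6 against 4.29 FPKM (2.71-fold, interval 2.20 to 3.36). The cytoplasmic reader Ythdf3 was at 17.4 against 7.52 FPKM. Ythdf2, the reader that recruits deadenylases, was at 8.29 against 3.96 FPKM and Rbm15, which brings the enzyme to RNA, at 29.99 against 17.6 FPKM, both under 2-fold on the log2(FPKM + 1) scale. Rbm15b was at 9.72 against 11.4 FPKM.

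The corepressor list (34), which holds the complexes that Zfp217 belongs to, had a median of -0.04, with 1 and 2 called. The scaffold Sin3a was at 4.90 against 13.98 FPKM, 2.85-fold higher with Zfp217 (interval 2.43 to 3.36), and a transcript of the deacetylase Hdac2 at 1.39 against 4.18 FPKM. A transcript of Ncor1, a nuclear receptor corepressor, was at 14.1 against 4.07 FPKM (3.47-fold higher with Mettl3, 2.84 to 4.27), and another Ncor1 transcript at 8.23 against 8.74 FPKM. A transcript of the remodeller Chd4 was at 7.88 against 15.6 FPKM, and another Chd4 transcript at 2.65 against 1.20 FPKM. The demethylase Kdm1a was at 6.54 against 6.80 FPKM, and Rcor2 at 6.10 against 7.16 FPKM.

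Other chromatin lists stayed near the background. Histone methylation, Polycomb and Trithorax genes (50) had a median of 0.10, with 2 and 1 called, and the Polycomb protein Phc1 was at 15.8 against 3.39 FPKM (4.66-fold, interval 3.70 to 5.94). Chromatin remodellers and bromodomain genes (37) had a median of 0.07, with 2 and 0 called, including Arid1a at 12.6 against 2.76 FPKM (4.56-fold, 2.09 to 11.6). RNA polymerase II, Mediator and general transcription genes (40) had a median of -0.05, and of -0.20 within GC and length quintiles, with 2 and 1 called. Ctdsp2, a phosphatase of the polymerase tail, was at 19.02 against 3.24 FPKM (5.88-fold, 4.72 to 7.39).

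Zinc finger genes named Zfp (114) had a median of 0.23, with 7 and 3 called. Zfp534 was at 17.7 against 5.35 FPKM (3.30-fold, interval 2.66 to 4.14), and Zfp428 at 2.63 against 6.405 FPKM. Within GC and length quintiles this median was 0.04, and the list's median GC content was 46.3%. Zbtb, Zscan and Zkscan factors (20) had a median of 0.19, and 0.12 within those quintiles. Predicted Gm genes (243) had a median of 0.11, with 14 and 5 called, led by Gm13225 at 74.6 against 14.9 FPKM (4.996-fold, 4.42 to 5.66).

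**Figure D5:**
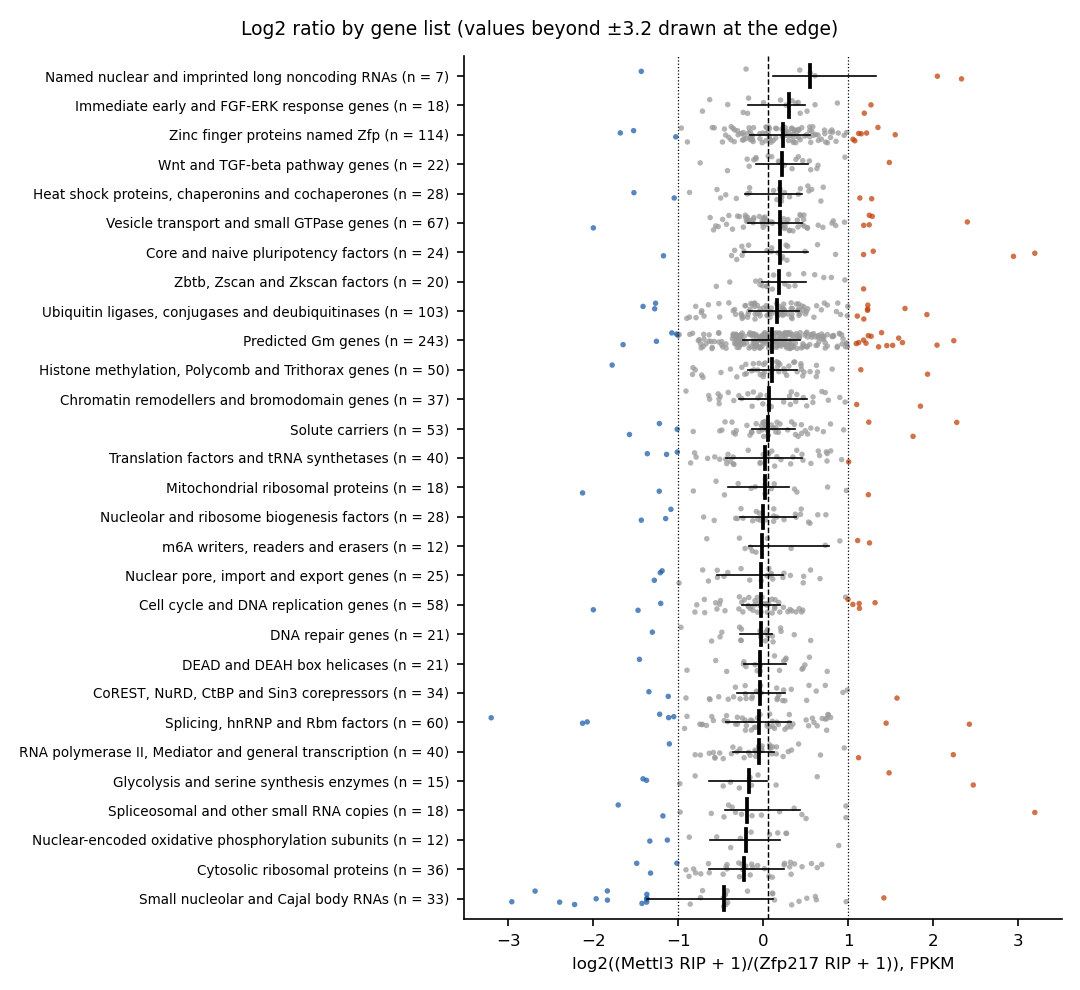
Log2 ratio of the Mettl3 over the Zfp217 RIP (x axis) for each shared transcript of the 29 gene lists with at least 5. Values past the axis are drawn at its edge. Thick bars mark list medians, thin lines the quartiles, the dashed line the median of all shared transcripts (0.06) and dotted lines the 2-fold limits. Medians run from -0.46 for small nucleolar and Cajal body RNAs to 0.56 for the 7 named long noncoding transcripts, and most lie between -0.22 and 0.31.

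Lists of genes for making RNA and protein had medians below that of all shared transcripts. Within GC and length quintiles this did not hold for nucleolar factors (0.04), DEAD and DEAH box helicases (0.03) and translation factors (0.0003), whose medians were above the 0 to which all transcripts were set. Cytosolic ribosomal proteins (36) had a median of -0.22, and -0.17 within GC and length quintiles, with 0 and 3 called. Among these, Rpl35a was at 1.72 against 5.802 FPKM and a noncoding Rpl27 transcript at 1.90 against 4.87 FPKM. The abundant Rpl7 was at 66.4 against 61.5 FPKM and Rps15a at 90.3 against 100.3 FPKM. These genes have many pseudogene copies that can take their reads, which makes the values uncertain. Nuclear-encoded oxidative phosphorylation subunits (12) had a median of -0.20, and -0.26 within those quintiles, with 0 and 2 called, of which Ndufb5 was at 2.70 against 7.07 FPKM (2.62-fold, interval 1.23 to 5.91). Mitochondrial ribosomal proteins (18) had a median of 0.02, with 1 and 2 called.

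Splicing, hnRNP and Rbm genes (60) had a median of -0.05, with 2 and 6 called. Besides Hnrnpl, the 6 included a noncoding Hnrnph1 transcript (1.11 against 8.21 FPKM) and Srsf7 (1.47 against 9.38 FPKM). The 2 were Rbm39 (24.5 against 8.35 FPKM, 2.94-fold, interval 2.44 to 3.55) and Hnrnph2 (11.7 against 1.36 FPKM). Nucleolar and ribosome biogenesis factors (28) had a median of 0.00, with 0 and 3 called, Nop56, Gar1 and Wdr12. Nuclear pore, import and export genes (25) had a median of -0.02, with 0 and 3 called, the transport receptors Xpo6, Ipo9 and Xpo1. DEAD and DEAH box helicases (21) had a median of -0.03 and 1 call, Ddx39b, towards Zfp217. For tRNA synthetases and translation factors (40) the median was 0.03, with 1 and 3 called, and Eif1, which selects the start codon, was at 9.69 against 26.5 FPKM (2.73-fold, 1.62 to 4.72).

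Lists of genes for protein turnover, folding and vesicle transport had medians above that of all shared transcripts. Ubiquitin ligases, conjugases and deubiquitinases (103) had a median of 0.17, with 7 and 3 called, and Fbxo30 was at 11.3 against 4.23 FPKM (2.67-fold, interval 2.22 to 3.22). Vesicle transport and small GTPase genes (67) had a median of 0.20, with 5 and 1 called. The 5 were Rab6, the coat proteins Sec31a and Sec24a, Vps37a and Ap1s2, and the 1 was the GTPase Cdc42 at 2.07 against 11.3 FPKM. Within GC and length quintiles the medians of these lists were -0.01 and 0.03. Heat shock proteins, chaperonins and cochaperones (28) had a median of 0.20, with 2 and 2 called.

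Metabolic and cell division genes were mixed. Glycolysis and serine synthesis enzymes (15) had a median of -0.16, with 2 and 2 called. Psat1 and a noncoding Pfkl transcript (4.64 against 1.02 FPKM) were higher with Mettl3, and Aldoa (1.36 against 5.28 FPKM) and a Pfkp transcript (1.48 against 5.43 FPKM) with Zfp217. The glucose transporter Slc2a1 was at 60.5 against 67.4 FPKM. Solute carriers (53) had a median of 0.06, with 3 and 3 called, with Slc39a7, a zinc transporter, at 4.37 against 11.5 FPKM (2.63-fold, interval 2.04 to 3.42). Cell cycle and DNA replication genes (58) had a median of -0.03, with 5 and 3 called. The 3 include the GTPase Cdc42, which is also counted in the vesicle transport list. Among the 5 were the cyclins Ccna2 and Ccnb1, the helicase subunit Mcm4, the centromere histone Cenpa and Cdc73, which is a subunit of the Paf1 complex of transcription. DNA repair genes (21) had a median of -0.03 and 1 call, Lig1, towards Zfp217.

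Of the 7 transcripts of named nuclear and imprinted long noncoding RNAs, 2 were higher with Mettl3 and 1 with Zfp217. Besides Tug1, Neat1, the scaffold of paraspeckles, was at 11.5 against 2.02 FPKM (5.71-fold, interval 3.17 to 11.2) for a transcript of 1030 bases. The 3 Gas5 transcripts were at log2 ratios of -1.43, -0.20 and 0.56, so transcripts of this host gene of box C/D snoRNAs did not move together.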

How the data were processed

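The authors deposited 2 tables, 1 per antibody, of FPKM values of the input and the RIP for Ensembl transcripts with symbols and source classes. The genome build was mm9, and the tools were Cufflinks and Cuffdiff with TopHat2 2.0.8, Bowtie2 and CASAVA 1.4, per the submitters' processing notes. What each did, and with which options, is not given in the sources used here. In the values, listed transcripts were at least 1 FPKM in the RIP and 1.5-fold above an input over 0. The labels do not describe this selection. A transcript low in either RIP is therefore not in the shared set, which narrows the ratios.

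Transcripts were joined by identifier, and the log2 ratio used a pseudocount of 1 FPKM. GENCODE M21 on GRCm38 gave sequences, lengths and coordinates for 3545 transcripts (88.1%), and none were taken from the authors' build. 11 symbols had been turned into dates and matched no list. Library sizes were those that made the fragment numbers of low transcripts whole: 64.1% and 63.6% fell within 0.06 of a whole number at these sizes, against 12.0% for evenly spread values. For short RNAs of 64 to 200 bases, 94.4% and 96.6% of values up to 6 reads lay within 0.15 of a whole read. The counts of calls were checked on simulated data. Python 3.11.15, pandas 2.3.3 and scipy 1.17.1 were used.

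The members and lists were chosen with earlier results of these data known. Named transcripts are, with both RIPs at least 2 FPKM, at least 300 bases and a symbol of a single gene, the 10 highest and 10 lowest and the highest and lowest of each list and class; the 6 most abundant; the pluripotency and m6A genes named above; symbols with opposite transcripts; and the 3 highest and lowest small RNAs. Some extremes of lists are not printed, and other members are given as examples. A transcript of the ribosomal protein list is counted but not reported here by name.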

Additional observations from a re-analysis of the deposited data

How the results depend on the processing

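With 1 library a side, replicate error is unknown, and each fold is that of these libraries. The tables list transcripts already selected against the input and were normalized separately. Transcripts of 1 gene share reads, and 12.4% and 17.4% of those of at least 300 bases had under 10 estimated fragments. No paired analysis was possible because each antibody has 1 library and the labels carry no replicate numbers.

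The 217 transcripts higher with Mettl3, the 138 higher with Zfp217 and the median of 0.06 became 372, 253 and 0.090 with a pseudocount of 0.1 FPKM, and 399, 269 and 0.0936 with none. They were 116, 60 and 0.17 at a mean of at least 5 FPKM, 76, 16 and 0.11 at an input of at least 1 FPKM, and 129, 39 and 0.0827 at an input of at least 0.01 FPKM. A 1.5-fold rule called 605 and 406, and a 3-fold rule 55 and 27. Of settings chosen after seeing the data, setting each transcript against its GC and length quintile left 133 higher with Mettl3, and asking for 10 estimated fragments left 69 higher with Zfp217.

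Among source classes, the protein-coding median of 0.08 was 0.10 with a pseudocount of 0.1 FPKM, 0.11 with none, 0.20 at a mean of 5 FPKM, 0.115 at an input of 1 FPKM, 0.012 after centring on all transcripts and -0.0058 within GC and length quintiles. The retained-intron median was -0.056 at a mean of 5 FPKM, -0.024 after centring and -0.037 at 10 fragments. The pseudogene median was -0.165 at 300 bases and -0.157 within quintiles. The processed-transcript median was 0.24 at a mean of 5 FPKM and 0.14 at an input of 1 FPKM, and the antisense median 0.40 at the latter.

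Among gene lists at a mean of 5 FPKM, the medians were 0.245 for Gm genes, 0.39 for remodellers, 0.12 for cell cycle genes, -0.51 for DNA repair genes and 0.38 for solute carriers. At an input of 1 FPKM they were 0.078 for cell cycle and -0.38 for DNA repair genes. Within quintiles they were 0.037 for Zfp and -0.013 for ubiquitin genes. The causes were not tested. Of the 44 classes and lists, 24 kept the sign of their median under the settings run. The m6A, nucleolar and nuclear pore lists each kept it in 6 of 12 settings. Of 510 values of called named transcripts, 501 kept their call. Settings that only filter transcripts leave a ratio unchanged, so they could not change a call. Many of these transcripts were also picked for extreme ratios, so the count is no measure of how stable calls are in general.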

Other observations

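Transcripts listed for 1 antibody alone are in no comparison here, since their level with the other antibody is not in these tables. They numbered 5475 for Mettl3 and 4094 for Zfp217. Protein-coding transcripts of at least 300 bases had a median GC content of 47.7% where listed for Mettl3 alone (3114), 49.3% where shared (2454) and 52.3% where listed for Zfp217 alone (1945). Their median lengths were 3469, 2883 and 1865 bases in the same order. Protein-coding transcripts made up 65.6% of those listed for Mettl3 alone and 55.4% of those for Zfp217 alone, and retained-intron transcripts 11.9% and 17.2%. Transcripts annotated for nonsense-mediated decay were 3.12% and 4.98%. There were 69 and 28 intergenic long noncoding RNAs, and 28 and 39 snoRNAs.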
